A study of Mus musculus with 16 samples.

Results

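The genes of 10 heat shock chaperones of the cytosol and the mitochondria were followed in bone marrow hematopoietic stem cells (HSCs) of mice with an intact or a deleted Selp gene. The set was taken by symbol from the 25239 genes of the count table. All 10 were found and all 10 passed the filter on low counts that left 14124 genes for testing. They are Hspa8, Hspa1a and Hspa1b of the Hsp70 family, Hsph1 of the Hsp110 family, Hsp90aa1 and Hsp90ab1, the Hsp40 proteins Dnaja1 and Dnajb1, and the mitochondrial pair Hspd1 (Hsp60) and Hspe1 (Hsp10).

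Mice were 4 to 6 months old. Selp encodes P-selectin, an adhesion receptor, and PSGL-1 is its ligand. KO cells exposed to 125 ng/mL PSGL-1 for 24 h gave 3 libraries and WT cells so treated gave 2. KO and WT cells kept in culture with vehicle gave 3 libraries each. Freshly sorted KO cells gave 2 libraries and freshly sorted WT cells gave 3. Both cultured arms were held in a serum-containing stem cell medium with SCF, IL-11 and Flt-3 ligand, so that culture, cytokines and time all separate them from fresh cells. The labels do not say how long the vehicle culture lasted. They also leave out whether a library stands for 1 animal or a pool, so p-values measure the spread between these libraries, which may be technical.

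Hsp70 proteins bind unfolded stretches of other proteins and release them in a cycle driven by ATP. Hsp40 proteins deliver those clients and speed up the ATP step, Hsp110 acts as a nucleotide exchange factor, and Hsp90 takes over clients such as kinases and receptors at a late stage of folding. In mitochondria, Hsp60 forms a folding chamber that Hsp10 closes. The heat shock factors Hsf1 and Hsf2 switch on many of these genes through repeats of the inverted unit GAA and TTC near their start sites. Hspa1a and Hspa1b are the classical stress-induced copies, whereas Hspa8 and Hsp90ab1 are made in most cells at all times.

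Library totals ran from 12590539 to 24690824 counts. WT PSGL-1 replicate 1 stood apart, with a count for 9035 genes against 11101 to 13480 in the other 15 libraries, and results that rest on it are given with and without it. Selp itself lay between 0 and 12.5 normalised CPM (counts scaled to the adjusted library total) in the 8 KO libraries and between 16.3 and 188 in the 8 WT libraries, with no overlap. All 10 HSC markers that were examined had counts, among them Kit and Procr. Their summed level was 1356 to 2091 normalised CPM in vehicle cultures and 2040 to 2645 in fresh cells. The 6 erythroid markers summed to 12.2 to 117 normalised CPM in vehicle cultures and 91.3 to 249 in fresh cells, with the hemoglobin genes Hba-a1 and Hbb-bs at 0 in all libraries. The 4 markers of T and NK cells summed to 10.4 to 21.8 normalised CPM in vehicle cultures and 38.5 to 99.7 in fresh cells, with Cd3e and Cd3d at 0 in all libraries.

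The start-site sequences of these genes were read from RefSeq (GRCm38.p6) in windows of 250 bases before to 50 bases after each annotated start. Such a window was found for 7 of the 10 genes, while Hspa8, Hsp90aa1 and Hsp90ab1 are named only. A run of 2 units (GAANNTTC or TTCNNGAA, on either strand) stood in windows of 6 of the 7 genes, all but Dnajb1, in 15.1% of all 32851 windows and, counted by gene, in 4587 of 27025 genes (17%). A run of 3 units (GAANNTTCNNGAA or TTCNNGAANNTTC) stood in windows of 3 of them, Hsph1, Hspd1 and Hspe1, in 0.603% of all windows and in 179 genes (0.662%). A run of 3 holds 2 overlapping runs of 2. Dnaja1 has 3 windows, and Hsph1, Dnajb1 and Hspd1 have 2 each, which gives these genes more places for a match. For Dnaja1 and Hspd1 only 1 window of each held any run. A match is a description of the letters and not a measured binding site.

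Hspd1 and Hspe1 lie head to head on chromosome 1 and share 1 run of 4 units (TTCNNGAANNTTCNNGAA or GAANNTTCNNGAANNTTC), which 0.0244% of all windows and 8 genes (0.0296%) held. It is shown from both strands because both genes hold it in a start window, with capitals for the 4 units. It lies at chr1:55088053-55088082, before the Hspe1 start on the plus strand, and inside an exon of 1 GENCODE transcript of Hspd1 on the minus strand.
Hspe1 strand: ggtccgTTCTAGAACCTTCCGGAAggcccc
Hspd1 strand: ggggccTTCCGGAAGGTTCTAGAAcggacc
Read from either gene, the element is thus built of the same inverted units. The first exons of the 2 genes overlap, so reads of the overlap cannot be assigned to 1 of them without strand.

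Hsph1 holds a run of 3 units just after 2 annotated starts, at chr5:149636280-149636308 on the minus strand. It is shown because Hsph1 had the largest fitted culture response of the 8 genes with sizeable counts, and capitals mark the run.
Hsph1: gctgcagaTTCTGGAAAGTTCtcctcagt
The run is 1 unit shorter than the element shared by Hspd1 and Hspe1.

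Hspa1a and Hspa1b stand close together on chromosome 17, at chr17:34969190-34972156 and chr17:34956436-34959238 on the minus strand. The 150 bases before their starts are shown because they are nearly the same in both genes, with the single run of 2 units in capitals. They lie at chr17:34972157-34972306 for Hspa1a and at chr17:34959239-34959388 for Hspa1b.
Hspa1a: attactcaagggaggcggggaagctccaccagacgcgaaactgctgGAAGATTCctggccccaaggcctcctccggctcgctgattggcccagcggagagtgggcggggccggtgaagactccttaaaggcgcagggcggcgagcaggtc
Hspa1b: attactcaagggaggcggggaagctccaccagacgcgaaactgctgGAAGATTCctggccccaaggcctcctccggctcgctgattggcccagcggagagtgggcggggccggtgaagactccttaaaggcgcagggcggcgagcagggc
The 2 stretches were identical at 149 of 150 bases, or 99.3%. Of the 50-base words of the transcripts, 58.8% of those of Hspa1a also occur in Hspa1b, and 62.3% of those of Hspa1b occur in Hspa1a. Neither labels nor file state how such reads were counted, so the split between the 2 genes is uncertain. Hsp90aa1, Hspd1 and Hspa8 share 47.5%, 42.1% and 39.4% of their words with other genes, led by Gm12346, Hspd1-ps3 and Gm15459, while Hsph1 shares none.

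The 10 genes took between 0.454% and 0.839% of all counts of a library. Per kilobase of the longest GENCODE transcript and over all 16 libraries, Hsp90ab1 stood highest at 898 ± 129 normalised CPM per kb (SD, n = 16). Hspa8 followed at 635 ± 171 and Hsp90aa1 at 320 ± 71.3. Hspe1 at 201 ± 65.5 and Hspd1 at 195 ± 48.0 did not differ beyond their spread, and they change places when the union of exons is used as the length. Dnajb1 at 56.0 ± 17.6 and Dnaja1 at 36.1 ± 9.8 came next, with spreads over all libraries that reach into each other. By group means Dnajb1 stood above Dnaja1 in every group except WT PSGL-1, which holds the sparse replicate 1. Hsph1 lay at 21.8 ± 10.0. The inducible Hspa1b and Hspa1a stood last, at 1.86 ± 1.63 and 0.223 ± 0.388 normalised CPM per kb. The always-made Hsp70 and Hsp90 forms thus held the top of the order, and the stress-induced Hsp70 copies the bottom.

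**Figure D1:**
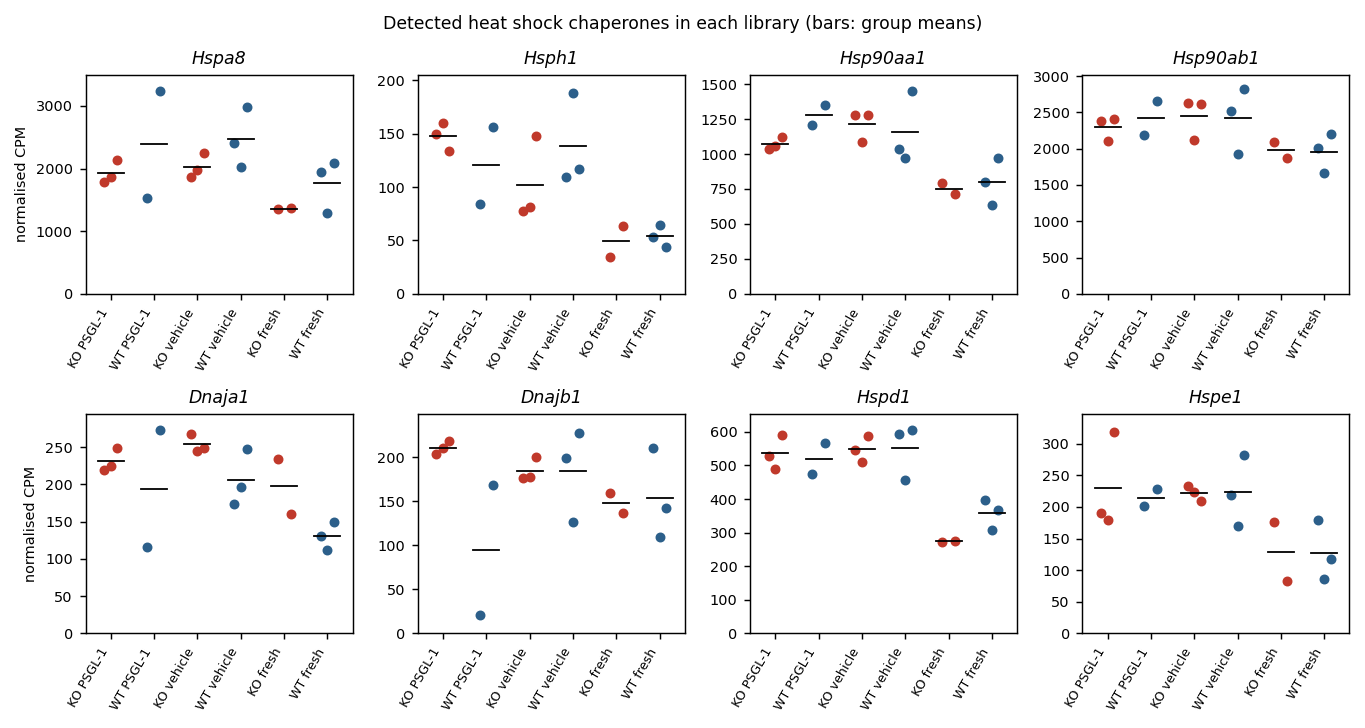
Normalised CPM of the 8 chaperone genes with sizeable counts in each of the 16 libraries, with KO libraries in red, WT libraries in blue and bars at the group means. Hspd1 lies between 458 and 606 in the vehicle cultures and between 272 and 398 in fresh cells, and in WT PSGL-1 replicate 1 Dnajb1 stands alone at 20.9.

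The first comparison asks how these genes differ between cells cultured in vehicle and fresh cells. Averaged over both genotypes, the mitochondrial chaperonin Hspd1, the Hsp110 gene Hsph1 and the stress-responsive Hsp90 form Hsp90aa1 rose, by 1.76-fold, 2.31-fold and 1.53-fold. None of the 10 genes fell. These 3 of 10 passed edgeR's quasi-likelihood test with Benjamini-Hochberg adjustment over all genes, at a background of 6.48% of the 14124 genes tested, or 915 genes. Of these 590 were higher (4.18% of all genes) and 325 lower. The fitted log2 fold change was above 0 for all 10, as it was for 46.8% of all genes. The median log2 fold change was 0.71 over the 10 genes and 0.57 over the 8 without Hspa1a and Hspa1b, whose fits rest on few counts, against -0.07 over all genes tested.

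Hspd1 had 546, 509 and 588 normalised CPM in KO vehicle libraries, against 272 and 276 in KO fresh libraries. WT vehicle libraries had 595, 458 and 606 normalised CPM of Hspd1, against 398, 308 and 366 in WT fresh libraries. Every vehicle library thus lay above every fresh one, within each genotype and across both. The log2 fold change was 1.00 with a standard error (SE) of 0.19 in KO cells and 0.63 with an SE of 0.17 in WT cells. By edgeR's quasi-likelihood test the adjusted p was 0.012 in KO cells, 0.0785 in WT cells and 0.000971 averaged over both. The KO call was lost when KO fresh replicate 1 or KO vehicle replicate 3 was left out (edgeR, adjusted p = 0.107 and 0.0526). The 2 fresh KO libraries lie at the bottom of the whole series, yet the difference of the KO and WT responses, 0.37 on the log2 scale with an SE of 0.25, did not pass the test (edgeR, adjusted p = 1.00).

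Its partner Hspe1, the lid of the Hsp60 chamber, had 234, 223 and 209 normalised CPM in KO vehicle libraries, against 176 and 82.2 in KO fresh libraries. In WT cells it had 219, 169.6 and 283 normalised CPM after vehicle, against 179, 85.1 and 117 fresh. A fresh library of each genotype, KO replicate 1 and WT replicate 1, stood well above the others of its group, and the WT groups overlapped. The averaged log2 fold change of 0.80 with an SE of 0.25 was as large as that of Hspd1 and missed the threshold (edgeR, adjusted p = 0.075). Without KO fresh replicate 1 it was 1.11 and passed (edgeR, adjusted p = 0.0334), as it did at 0.96 without WT fresh replicate 1 and at 0.81 without the sparse WT PSGL-1 replicate 1 (edgeR, adjusted p = 0.0385 and 0.0445). Without KO fresh replicate 2 it was 0.59 (edgeR, adjusted p = 0.238).

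Hsph1 had 77.4, 81.4 and 148 normalised CPM in KO vehicle libraries, against 34.5 and 63.7 in KO fresh libraries. WT vehicle libraries had 109, 188 and 117 normalised CPM, against 53.4, 64.3 and 43.4 in WT fresh libraries. No fresh library reached the level of any cultured one, although single vehicle libraries lay far above the rest of their group. The averaged log2 fold change was 1.21 with an SE of 0.27 (edgeR, adjusted p = 0.0143). It was 1.00 and no longer passed without KO fresh replicate 1 (edgeR, adjusted p = 0.0983).

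Hsp90aa1 had 1281, 1084 and 1278 normalised CPM in KO vehicle libraries, against 789 and 711 in KO fresh libraries. In WT cells it had 1039, 972 and 1453 normalised CPM after vehicle, against 801, 634 and 969 fresh, and the highest fresh library lay just below the lowest cultured one. The averaged log2 fold change was 0.61 with an SE of 0.14 (edgeR, adjusted p = 0.0139). The always-made form Hsp90ab1 had 2623, 2120 and 2617 normalised CPM in KO vehicle libraries, against 2088 and 1877 in KO fresh libraries. WT vehicle libraries had 2519, 1932 and 2819 of it, against 2003, 1661 and 2206 in WT fresh libraries. In WT cells its groups overlapped, and its averaged log2 fold change of 0.31 with an SE of 0.12 did not pass (edgeR, adjusted p = 0.173).

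The Hsp70 gene Hspa8 had 1869, 1979.6 and 2247 normalised CPM in KO vehicle libraries, against 1348 and 1364 in KO fresh libraries. WT vehicle libraries had 2411, 2021 and 2990 of it, against 1947, 1295 and 2084 in WT fresh libraries. The KO groups were apart and the WT groups overlapped. The averaged log2 fold change of 0.53 with an SE of 0.18 missed the threshold (edgeR, adjusted p = 0.105), and passed without the sparse WT PSGL-1 replicate 1 (edgeR, adjusted p = 0.0197).

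Dnaja1, an Hsp40 partner of Hspa8, had 268, 245 and 249 normalised CPM in KO vehicle libraries, against 235 and 160.4 in KO fresh libraries. It had 174, 196 and 248 normalised CPM in WT vehicle libraries, against 131, 112 and 149 in WT fresh libraries. Cultured libraries were the higher ones in both genotypes, and the averaged log2 fold change of 0.51 with an SE of 0.21 did not pass (edgeR, adjusted p = 0.174). Dnajb1, the Hsp40 gene usually induced with Hspa1a, had 176, 177 and 200.5 normalised CPM in KO vehicle libraries, against 159 and 136 in KO fresh libraries. It had 199, 126 and 227 in WT vehicle libraries, against 211, 109 and 142 in WT fresh libraries. The WT groups interleaved, and its averaged log2 fold change of 0.29 with an SE of 0.37 was the smallest of the 8 and did not pass (edgeR, adjusted p = 0.769).

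**Figure D2:**
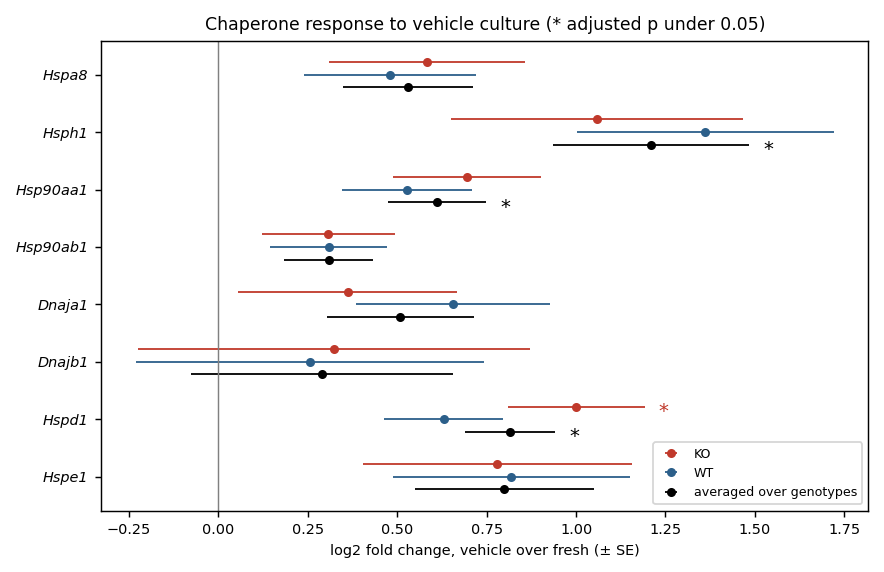
Log2 fold change of vehicle over fresh cells with its SE for 8 chaperone genes, in KO cells (red), WT cells (blue) and averaged over both (black), with an asterisk where edgeR's adjusted p was under 0.05. All 24 values lie above 0, from 0.26 for Dnajb1 in WT cells to 1.36 for Hsph1 in WT cells, and asterisks stand at Hspd1 in KO cells and at the averages of Hsph1, Hsp90aa1 and Hspd1.

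Within KO cells alone, Hspd1 was the 1 gene of the 10 called, at a background of 1.77% in either direction and 1.23% higher. Within WT cells alone, none of the 10 was called by edgeR's quasi-likelihood test at a background of 1.64%, with 5 at an unadjusted p under 0.05, as 12% of all genes. In WT cells DESeq2 called 2 of them, Hsph1 and Hspd1, and 797 of all genes (5.64%), and limma voom with quality weights called 4 of them and 706 of all genes (5%). The levels of vehicle and fresh libraries did not overlap for 8 of the 10 genes in KO cells, where 16.3% of all genes were higher without overlap. In WT cells this held for 4 of the 10 genes, Hsp90aa1, Hsph1, Dnaja1 and Hspd1, at a background of 10.3%. The KO and WT responses of these genes were not shown to differ: none of the 10 differences passed edgeR's test and none had an unadjusted p under 0.05, at backgrounds of 0% called and 2.5% under the unadjusted limit.

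The averaged count depended on 1 library that is in neither group. Without the sparse WT PSGL-1 replicate 1, which enters through the shared estimate of spread, 6 of the 10 genes were called: Hspa8, Hsp90aa1, Hsph1, Dnaja1, Hspd1 and Hspe1. In that fit the calls over all genes were 1566 of 15095, or 10.4%. Their fold changes hardly moved. Leaving that library out also changed the filter and the scaling, and which of these changes added the calls was not tested. Leaving out any single library of the vehicle or WT fresh groups gave 3 or 4, where 4.51% to 5.75% of all genes were called. The KO fresh group would be left with 1 library and is not counted here. Fitting the 4 vehicle and fresh groups alone called 4 of the 10, Hspa8, Hsp90aa1, Hsph1 and Hspd1, at 10.6% of all genes.

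Other measured features moved with the same contrast. Of the immediate early genes, which rise with cell handling and dissociation, Jun and Ier2 fell in vehicle cultures, with log2 fold changes of -3.54 and -1.58 (edgeR, adjusted p = 0.000128 and 0.000123). The 8 genes of that list summed to 425 to 757 normalised CPM in vehicle cultures and 641 to 2631 in fresh cells. Of 10 granulocyte and monocyte markers, Lyz2 and Prtn3 were called lower, and the list summed to 125 to 435 normalised CPM in vehicle cultures and 734 to 1282 in fresh cells, with S100a8 and S100a9 at 0 in the vehicle cultures. Of the HSC markers Ly6a was called higher, with a log2 fold change of 2.14, and Kit lower. Of the 3 multipotent progenitor markers Cd34 alone was called, higher, with a log2 fold change of 1.48 (edgeR, adjusted p = 1.95e-05). That list summed to 742 to 1036 normalised CPM in vehicle cultures and 274 to 438 in fresh cells. The median log2 fold change of its genes was 0.002. The part of these shifts in the chaperone result was not tested. In bulk libraries a change in the share of a cell type and a change in RNA per cell cannot be told apart.

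The partners were also compared as ratios of raw counts, which do not depend on library scaling. The ratio of Hsp90aa1 to Hsp90ab1 was 0.488, 0.511 and 0.488 in KO vehicle libraries, against 0.378 and 0.379 in KO fresh libraries. It was 0.412, 0.503 and 0.515 in WT vehicle libraries, against 0.400, 0.381 and 0.439 in WT fresh libraries. The groups were apart in KO cells, and in WT cells the highest fresh library lay above the lowest cultured one. Averaged over genotypes the ratio was 1.24-fold higher in vehicle than in fresh cells. An exact two-sided permutation test within genotypes, over 200 arrangements with a smallest possible p of 0.005, gave p = 0.01, or 0.03 after Benjamini-Hochberg adjustment over the 3 ratios examined. The ratios and the test were chosen after seeing the same data, and the adjustment does not cover that choice. Leaving out each library in turn gave an unadjusted p between 0.01 and 0.0333 in the same exact test. Adjusted over the 3 ratios it lay between 0.03 and 0.1 and no longer passed in 9 of the 11 cases, and the log2 difference was 0.28 to 0.36. Those cases have only 80 to 120 arrangements, which raises the smallest p they can give. A lost pass therefore does not by itself show a smaller difference. In the PSGL-1 groups the ratio was 0.4339, 0.5001 and 0.4656 in KO libraries and 0.553 and 0.508 in WT libraries.

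The ratio of Hspd1 to Hspe1, the chamber and the lid of the mitochondrial chaperonin, averaged 2.48 ± 0.29 in KO vehicle libraries (SD, n = 3) and 2.45 ± 1.28 in KO fresh libraries (SD, n = 2). It averaged 2.52 ± 0.33 in WT vehicle libraries and 2.99 ± 0.70 in WT fresh libraries (SD, n = 3 each). The mean log2 difference was -0.06 (exact permutation test, p = 0.83) and its sign changed with the library left out, from -0.34 to 0.23. The ratio of Hsph1 to Hspa8 was 0.0414, 0.0411 and 0.0659 in KO vehicle libraries, against 0.0256 and 0.0467 in KO fresh libraries. It was 0.0453, 0.0929 and 0.0390 in WT vehicle libraries, against 0.0274, 0.0496 and 0.0208 in WT fresh libraries. Both genotypes overlapped, and the 1.58-fold higher mean ratio in vehicle cells did not pass (exact permutation test, p = 0.09, adjusted p = 0.135).

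**Figure D3:**
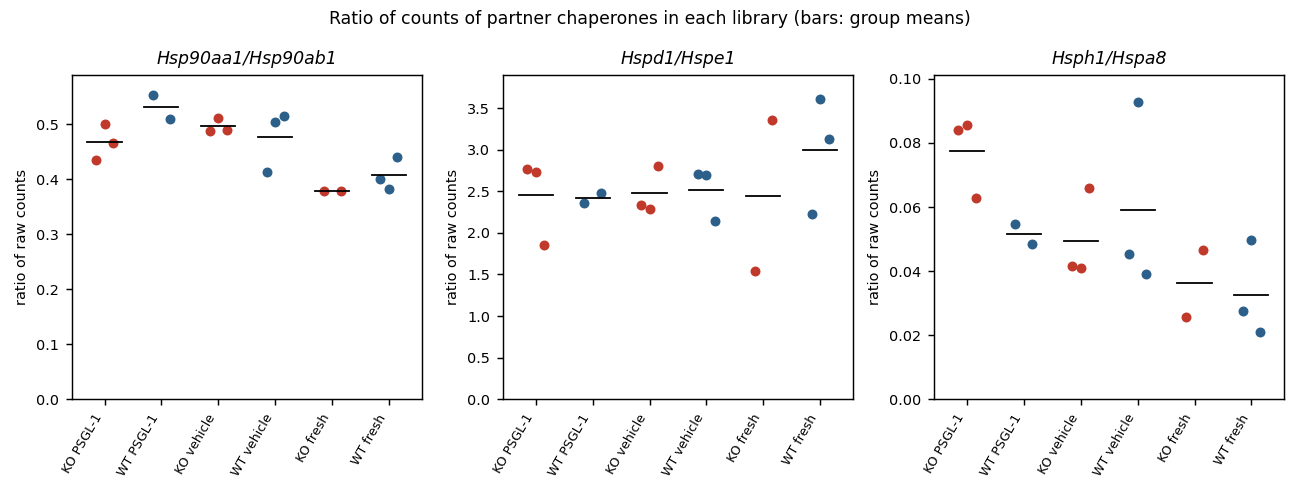
Ratio of raw counts of 3 pairs of partner chaperones in each of the 16 libraries, with KO in red, WT in blue and bars at the group means. The ratio of Hsp90aa1 to Hsp90ab1 lies between 0.412 and 0.553 in the 11 cultured libraries and between 0.378 and 0.439 in the 5 fresh ones, while the ratio of Hspd1 to Hspe1 has its widest spread in fresh cells.

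Of the inducible Hsp70 genes, Hspa1a had few counts and Hspa1b uneven ones, and both are given as raw counts beside a floor of detection of 3 counts per library. Hspa1a had 60, 8 and 0 counts in KO PSGL-1 libraries, against 49, 4 and 44 in KO vehicle libraries and 10 and 0 in KO fresh libraries. In WT cells it had 0 and 9 counts after PSGL-1, against 0, 1 and 1 after vehicle and 0, 0 and 0 in fresh cells. It was above 3 counts in 6 of 8 KO libraries and in 1 of 8 WT libraries. The summed counts were 175 over the KO libraries and 11 over the WT libraries. Averaged over conditions the genotype difference had an unadjusted p of 0.029 and did not pass edgeR's test (adjusted p = 0.692).

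Hspa1b had 146, 91 and 157 counts in KO PSGL-1 libraries, against 81, 103 and 211 in KO vehicle libraries and 155 and 0 in KO fresh libraries. In WT cells it had 0 and 87 counts after PSGL-1, against 1, 243 and 65 after vehicle and 0, 39 and 0 in fresh cells. It was above 3 counts in 9 of 11 cultured libraries and in 2 of 5 fresh ones. Within each group single libraries ranged widely, from 0 or 1 upward, except in cultured KO cells, where all 6 libraries held at least 81. No comparison of either gene passed edgeR's test. With 0 counts in 4 of the 5 fresh libraries for Hspa1a and in 3 of the 5 for Hspa1b, no fold change against fresh cells is read from these counts, and a level below the floor was not detectable at this depth. Their fitted values enter only the count above 0, the median over 10 genes and the plot of the gene lists.

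**Figure D4:**
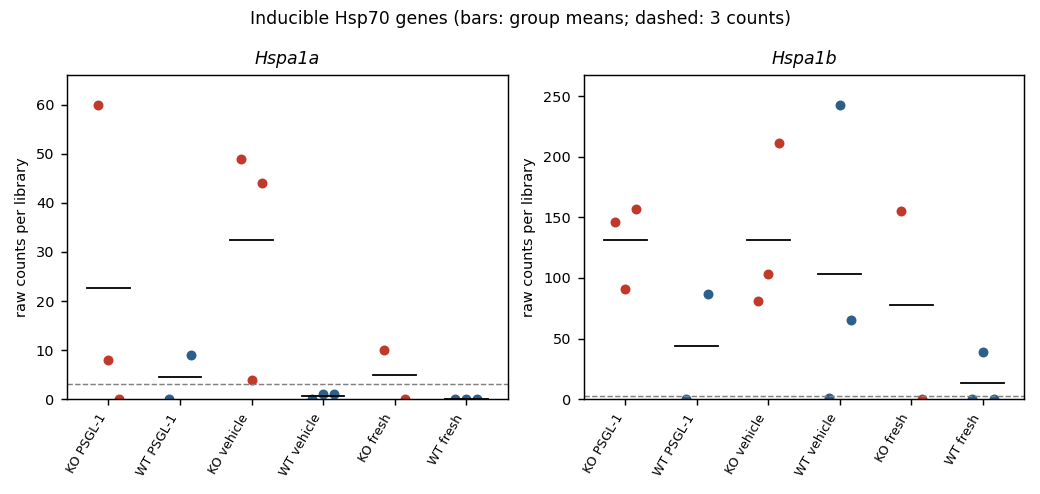
Raw counts of Hspa1a and Hspa1b in each of the 16 libraries, with KO in red, WT in blue, bars at the group means and a dashed line at the floor of 3 counts. Hspa1a exceeds 10 counts in 3 libraries, all KO and cultured, and Hspa1b ranges from 0 to 243.

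The second comparison asks whether cells without P-selectin differ from WT cells in these genes. None of the 10 was called in fresh cells, after vehicle or after PSGL-1, where edgeR called 0.00708% of all genes in each case. None had an unadjusted p under 0.05 in fresh cells, after vehicle or after PSGL-1, where 2.84%, 2.83% and 5.81% of all genes did, and DESeq2 and limma voom called none either. Averaged over the 3 conditions, again none was called by edgeR, at a background of 0.0354%, with 3 at an unadjusted p under 0.05, as 6.84% of all genes: Hspa1a, Dnaja1 and Hspa8. The comparisons share their libraries with those of culture and are not independent of them.

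Dnaja1 was higher in fresh KO cells, at 235 and 160.4 normalised CPM, than in fresh WT cells, at 131, 112 and 149, without overlap. Its averaged log2 fold change was 0.38 with an SE of 0.17 (edgeR, unadjusted p = 0.0398, adjusted p = 0.709). That value was 0.22 without the sparse WT PSGL-1 replicate 1, where Dnaja1 stood at 116, and 0.64 without WT PSGL-1 replicate 2 (edgeR, adjusted p = 0.0055), a call in which the sparse library alone stands for its group. Hspa8 showed the opposite sign, with an averaged log2 fold change of -0.33 and an SE of 0.15 (edgeR, unadjusted p = 0.0452, adjusted p = 0.722), -0.47 without the sparse library and -0.11 without WT PSGL-1 replicate 2 (edgeR, adjusted p = 0.692). Fresh Hspd1 was 272 and 276 normalised CPM in KO cells, against 398, 308 and 366 in WT cells, also without overlap, and its log2 fold change of -0.38 with an SE of 0.19 did not pass (edgeR, adjusted p = 1.00). In fresh cells 9.78% of all genes were higher and 9.2% lower in KO without overlap, so that 1 gene each way among 10 lies near the background. After vehicle, Hspa1a was higher in KO without overlap (5.14% of all genes). After PSGL-1, Hspa1b and Dnajb1 were higher (10.8% of all genes) and Hsp90aa1 lower (6.92%) without overlap.

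For the Hsp90 pair, Hsph1, Hspd1 and Hspe1 no averaged genotype difference passed the test, which does not show equal levels. Hsp90ab1 had a log2 fold change of -0.01 with an SE of 0.10, and Hsp90aa1 one of -0.09 with an SE of 0.11. The values were -0.09 with an SE of 0.22 for Hsph1, -0.12 with an SE of 0.10 for Hspd1 and 0.04 with an SE of 0.21 for Hspe1. Dnajb1 had a log2 fold change of 0.37 with an SE of 0.30 (edgeR, adjusted p = 1.00), and that of Hspa1b, whose counts are uneven, did not pass either (edgeR, adjusted p = 1.00).

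The third comparison asks what PSGL-1 adds to culture. None of the 10 genes was called in KO or in WT cells by edgeR's quasi-likelihood test, where 0% of all genes passed, with 198 genes (1.4%) in KO cells and 803 (5.69%) in WT cells at an unadjusted p under 0.05. None of the 10 was among those. DESeq2 called 41 genes in KO cells and 229 in WT cells, again with none of the 10. The 8 genes with sizeable counts had a median log2 fold change of -0.05 in KO cells and -0.07 in WT cells, against 0.00 and -0.11 over all genes.

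The widest shift in KO cells was that of Hsph1, which had 149.9, 159.6 and 134 normalised CPM after PSGL-1, against 77.4, 81.4 and 148 after vehicle. The groups overlapped through vehicle replicate 3, and the log2 fold change of 0.53 with an SE of 0.35 did not pass (edgeR, adjusted p = 1.00). Dnajb1 had 203, 210.2 and 218 normalised CPM in KO PSGL-1 libraries, against 176, 177 and 200.5 in KO vehicle libraries, without overlap, as 4.1% of all genes. Its log2 fold change of 0.19 with an SE of 0.49 did not pass (edgeR, adjusted p = 1.00).

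Hspd1 had 529, 491 and 592 normalised CPM in KO PSGL-1 libraries and 475 and 566 in WT PSGL-1 libraries. In KO cells the 2 conditions overlapped, and both WT libraries lay within the range of the WT vehicle libraries. Hsp90aa1 had 1036, 1056 and 1119 normalised CPM in KO PSGL-1 libraries, against 1281, 1084 and 1278 in KO vehicle libraries, with a log2 fold change of -0.18 and an SE of 0.18 (edgeR, adjusted p = 1.00). In WT cells it had 1211 and 1352 after PSGL-1, within the range of the vehicle libraries. Hspe1 reached its highest value of the series, 319 normalised CPM, in KO PSGL-1 replicate 3, while the other 2 libraries of that group had 191 and 179.

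In WT cells Dnajb1 had 20.9 and 169 normalised CPM after PSGL-1, against 199, 126 and 227 after vehicle. The low value is the sparse replicate 1, and the other PSGL-1 library lies inside the vehicle range. The log2 fold change of -0.96 with an SE of 0.56 did not pass (edgeR, adjusted p = 0.774). It was -0.13 without replicate 1, and -3.17 without replicate 2 (edgeR, adjusted p = 6.84e-05), a call that rests on the sparse library alone. For the same reason Dnajb1 after PSGL-1 was 1.15 higher in KO than in WT cells on the log2 scale, but 0.33 without replicate 1 and 3.36 without replicate 2. The median over all genes was itself 0.17 in that comparison. In the sparse library Hspa8 and Dnaja1 were also the lower of the 2 WT PSGL-1 values, at 1538 and 116 normalised CPM against 3238 and 273, while Hsp90aa1, Hspd1 and Hspe1 were nearer to each other.

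How the 8 genes with sizeable counts varied together was described by Pearson's r of log2 levels over the 16 libraries, which share the split between cultured and fresh cells. The Hsp90 pair was closest, with r = 0.89, followed by Hsp90aa1 with Hspd1 at 0.87 and Hspd1 with Hspe1 at 0.83. Dnajb1 had values from 0.06 with Hsp90aa1 to 0.60 with Dnaja1, but the low ones rest on the sparse WT PSGL-1 replicate 1. Over the 15 libraries without it, Dnajb1 had r from 0.34 with Hsph1 to 0.79 with Hspe1, and 0.63 with Hsp90aa1. Outside the set, the genes most like Hspd1 over the 16 libraries were Tuba1b, Eif4a1, Tubb5, Macroh2a1 and Slc25a5, with r from 0.95 to 0.97. Those most like Hspa8 were Cct6a, Hdgf, Srm, H2ax and Cct5, with r from 0.88 to 0.92, and Cct6a and Cct5 are subunits of the cytosolic chaperonin. Those most like Hspa1a were Dnah2, Mfsd2a, Tmem171, Penk and Arg1, with r from 0.83 to 0.93, and rest on a gene with few counts.

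The rest of the chaperone network was counted from lists of related genes in the vehicle against fresh comparison, averaged over genotypes, at the same background of 6.48% of genes called. Of 9 other Hsp70 and Hsp110 genes 2 rose, Hspa4 by 1.86-fold and Hspa14 by 1.75-fold. Of 30 other Hsp40 genes none was called, and in KO cells alone Dnajc5 rose 2.47-fold (edgeR, adjusted p = 0.0423). Of 27 co-chaperones of Hsp70 and Hsp90, Stip1, which bridges the 2 systems, rose 1.93-fold and Ptges3, which is the Hsp90 cofactor p23, rose 1.71-fold. Stip1 had 370 ± 58.8 normalised CPM in KO vehicle libraries (SD, n = 3) and 199 ± 34.2 in KO fresh libraries (SD, n = 2). Its WT values were 422 ± 29.3 after vehicle and 211 ± 47.4 in fresh cells (SD, n = 3 each).

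Of the 8 subunits of the CCT chaperonin, which folds actin and tubulin, all had a log2 fold change above 0 and 2 were called, Tcp1 with 1.85-fold and Cct8 with 1.63-fold. Tcp1 was called in KO and in WT cells as well (edgeR, adjusted p = 0.0328 and 0.0364). None of the 6 prefoldin genes and none of the 15 other mitochondrial chaperones and proteases was called. Their median log2 fold changes were -0.07 and 0.13, against -0.07 over all genes and 0.82 for Hspd1. The largest count was that of the ER chaperones, with 6 of 14 higher and a median log2 fold change of 0.64. Sdf2l1, a partner of the ER Hsp70, rose 4.17-fold and Dnajb11, an ER Hsp40, rose 2.57-fold, both also called in each genotype. Pdia6 and Canx rose 1.66-fold and 1.67-fold.

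None of the regulators of this system was called. Hsf1, the main heat shock factor, had a log2 fold change of 0.08 with an SE of 0.23 (edgeR, adjusted p = 0.952) and Hsf2 one of -0.50 with an SE of 1.08 (edgeR, adjusted p = 0.909). The same held for all 5 tested genes of that list and for the 6 tested small heat shock proteins, whose median was -0.97. Among the 70 tested genes with a run of 3 units in a start window, 7 were called higher and 1 lower. The share called higher was 10%, against 4.30% of the 11119 tested genes with a window. Their median log2 fold change was 0.05, against -0.06 for all genes with a window. In WT cells alone 1 of the 70 was called higher, or 1.43% against 1.24%, and in KO cells alone 4 were, or 5.71% against 1.29%. The 7 include Hspd1 and Hsph1, whose response was already known here. Of the 8 genes with a run of 4 units, 6 were tested, and only Hspd1 was called. Chordc1, an Hsp90 cofactor, had a log2 fold change of 0.04, beside 0.82 for Hspd1 and 0.80 for Hspe1, which share 1 run. Arpc2, Fam149a and Kctd18 had 0.03, 0 and 0.17.

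**Figure D5:**
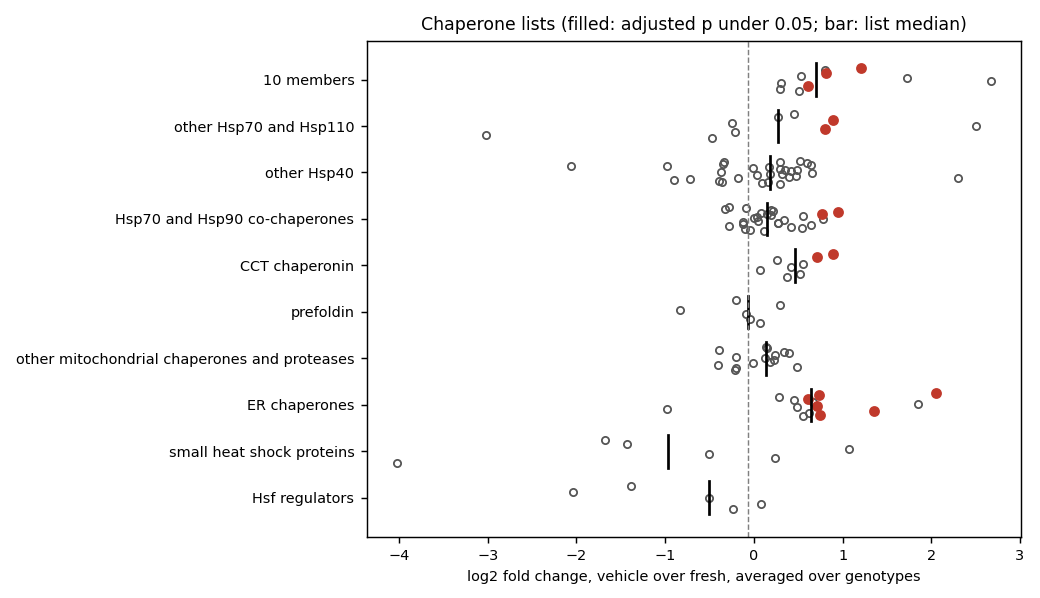
Log2 fold change of vehicle over fresh cells, averaged over genotypes, for each tested gene of the 10 chaperones and 9 related lists, with filled red points where edgeR's adjusted p was under 0.05, a black bar at each list's median and a dashed line at the median of all genes, -0.07. Filled points stand at 3 of the 10 chaperones and 6 of 14 ER chaperones, and at none of the Hsp40, prefoldin, mitochondrial, small heat shock protein and Hsf lists, and the 2 chaperones farthest right, Hspa1a and Hspa1b, rest on few counts.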

How the data were processed

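The authors deposited raw read counts per gene symbol, 1 column per library. Per the labels' protocols, a column kit for few cells gave the RNA, and an ultra-low-input SMART kit amplified it as cDNA. Per the submitters' processing notes, the tools were STAR 2.7.5c, featureCounts, MultiQC 1.10 and DESeq2, with mm10 as genome build. The annotation, strand setting and counting of multi-mapped reads: not given in the sources used here.

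One edgeR 4.0.16 quasi-likelihood model (R 4.3.3, robust, TMM scaling, filterByExpr by group) was fitted to all 16 libraries with 1 mean per group. In all, 11 contrasts were tested, with p-values adjusted by Benjamini-Hochberg over all 14124 genes tested at a threshold of 0.05. An SE is the log2 fold change divided by the root of its F value. The common biological coefficient of variation was 0.977. A floor of 3 counts equals 0.123 to 0.230 normalised CPM and covers counting error only. No 2 libraries of a group agreed within sampling noise (lowest chi-square per degree of freedom 59.8). The 3 count ratios and their exact permutation test were chosen after seeing the data. Lengths and 50-base words come from GENCODE M21, start windows from RefSeq. The likeness of patterns used log2 of normalised CPM + 0.5.

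The 10 genes were tested as given, and from each related list up to 4 called genes with the smallest adjusted p were named, with Hsf1 and Hsf2 for the regulators. Chordc1, Arpc2, Fam149a and Kctd18 were named after their values were seen. The members and lists were chosen with earlier results of these data known. The model was tested on simulated data. Alternatives were DESeq2 1.42.0, limma 3.58.1 voom, RLE scaling, other filters, replicate blocks and leaving out each library.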

Additional observations from a re-analysis of the deposited data

How the results depend on the processing

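Precision was limited by groups of 2 or 3 libraries and, for Hspa1a and Hspa1b, by few counts and libraries at 0. In the vehicle against fresh comparison, the 8 chaperone genes with sizeable counts kept their direction under every alternative run; Hspa1a, Hspa1b and the related lists were not recomputed singly.

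The number of chaperone genes called in WT cells, 0, was 2 with DESeq2, 4 with limma voom and 0 to 1 when single libraries were left out (Hsph1 without the sparse WT PSGL-1 replicate 1). In KO cells it was 1, 2 with DESeq2 and 0 to 1 with single libraries left out. Averaged over genotypes it was 3, 7 with limma voom and 3 to 6 with single libraries left out, 6 being the value without the sparse library. When WT PSGL-1 was represented by the sparse library alone, the count was 2 for KO against WT after PSGL-1 and averaged over conditions (Dnaja1 and Dnajb1), and 1 for PSGL-1 against vehicle in WT cells and for its difference between genotypes (Dnajb1), against 0 in each with all libraries. The ranges over single libraries left out were 0 to 2 and 0 to 1. In the averaged vehicle against fresh comparison, DESeq2 called 4 chaperone genes, at 12.6% of all genes. Fitting the compared groups alone also called 4, at 10.6%. The 7 with limma voom came at 13.4%, against 6.48% for the 3 with edgeR. In KO cells the 2 with DESeq2 came at 5.88% and 1 with limma voom at 3.84%, against 1.77% with edgeR. In WT cells the 2 with DESeq2 and 4 with limma voom came at 5.64% and 5%, against 1.64%. The causes were not tested.

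The log2 difference of the Hsp90aa1 to Hsp90ab1 ratio ranged from 0.278 to 0.358 with single libraries left out, and its adjusted p passed in 2 of 11 cases. All of these cases had fewer arrangements than the full test, which raises the smallest p they can give. The ratio of Hspd1 to Hspe1 changed sign in 3 of 11 cases of a library left out, with log2 differences from -0.336 to 0.226; this alternative was added after seeing the data.

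Over all genes, vehicle against fresh gave 231 calls in WT cells, 250 in KO cells and 915 averaged. DESeq2 gave 797, 831 and 1780, and limma voom 706, 542 and 1896. Fitting the 4 groups alone gave 1455 for the average. Leaving out single libraries gave 85 to 440, 76 to 554 and 552 to 1566. For KO against WT, DESeq2 gave 93, 111, 250 and 241 calls in fresh, vehicle, PSGL-1 and averaged, against 1, 1, 1 and 5 with edgeR; for the 2 differences between genotypes it gave 69 and 118 against 0.

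With the replicate number as a block, the averaged count of chaperone genes was 3, the same 3 genes, and no member call changed. Blocks of consecutive library numbers added Hspa8. Whether the numbers pair the libraries was not settled. Deviations of same-numbered libraries correlated between -0.0586 and 0.0698, with 0 of 36 pairs over 0.1. Between KO vehicle and KO PSGL-1 the same-numbered pairs had 0.0594, 0.0592 and 0.0663, and the differently numbered ones lay between -0.0514 and -0.00868. Between WT vehicle and WT PSGL-1 the pairs with the same replicate number had 0.00902 and -0.0586. Paired by consecutive library numbers, WT vehicle replicates 2 and 3 with WT PSGL-1 replicates 1 and 2 had 0.0586 and 0.0866. Between KO vehicle and KO PSGL-1 both numberings give the same pairs. A group of 2 libraries has mirrored deviations, so its values are not independent. For KO against WT averaged over conditions, fitting the compared groups alone is the same fit and was not run. The planned lengths of RefSeq transcripts were replaced by those of GENCODE.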
